A study of Mus musculus with 2 samples.

Results

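The genes of the ISG15 conjugation pathway, Isg15, Uba7, Ube2l6 and Herc6, together with Usp18, were followed through single AE9a leukemia cells. The 5 genes were taken by their symbols. All 5 were found once each among the 31053 genes of the count files.

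ISG15 is a small ubiquitin-like protein that cells make in quantity after type I interferon. It is attached to lysines of other proteins by an enzyme cascade that parallels the ubiquitin cascade: UBA7 is the activating enzyme (E1), UBE2L6 the conjugating enzyme (E2), and HERC6 the main ligase (E3) in the mouse. USP18 removes ISG15 from its targets and, apart from that protease activity, binds the receptor chain IFNAR2 with STAT2 and dampens interferon signaling. The genes of this pathway are themselves interferon-stimulated genes (ISGs), transcribed through the factor ISGF3, which reads the interferon-stimulated response element (ISRE).

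A promoter window, from 250 bases before the annotated start to 50 bases after it, was matched by symbol in RefSeq (GRCm38.p6) for 4 of the 5 genes, Isg15, Ube2l6, Herc6 and Uba7. Each window was searched on both strands for the core of an ISRE, written GAAANNGAAA. Only the window of Isg15 held it, as 3 overlapping matches that together cover the bases from 78 to 57 before the start. The core was present in 1131 of 32851 promoter windows of this length, or 3.44%. The window of Isg15 lies at chr4:156200769-156201068 on the minus strand, and that of Uba7 at chr9:107975317-107975616 on the plus strand. Both are shown because they belong to the gene with the largest and the gene with the smallest difference between the libraries among those matched. Capitals mark the ISRE core matches.
Isg15: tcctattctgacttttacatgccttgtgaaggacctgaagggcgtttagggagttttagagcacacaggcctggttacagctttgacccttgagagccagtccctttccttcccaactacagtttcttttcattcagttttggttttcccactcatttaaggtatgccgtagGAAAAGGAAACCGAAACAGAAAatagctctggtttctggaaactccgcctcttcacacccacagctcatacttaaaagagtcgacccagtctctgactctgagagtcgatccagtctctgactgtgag
Uba7: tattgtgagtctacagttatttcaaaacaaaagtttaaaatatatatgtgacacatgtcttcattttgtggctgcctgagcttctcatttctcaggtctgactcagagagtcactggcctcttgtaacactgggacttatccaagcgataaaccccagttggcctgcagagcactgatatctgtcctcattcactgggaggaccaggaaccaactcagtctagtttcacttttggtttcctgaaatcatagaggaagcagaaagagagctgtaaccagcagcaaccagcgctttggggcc
A second motif, the gamma-activated sequence, written TTCNNNGAA, was in none of the 4 windows and in 8.30% of all windows. A match describes the letters only, and a window without one says nothing about binding elsewhere.

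The cells came from the spleens of recipients of AE9a leukemia, in which a shortened AML1-ETO fusion protein drives acute myeloid leukemia and GFP marks the leukemia cells. In both groups the leukemia cells were heterozygous for a floxed Usp18 allele (Usp18+/f), with a Cre transgene that tamoxifen activates. The recipients were injected with oil (labelled Usp18+/f) or with tamoxifen (labelled Usp18+/Δ), and 3 days after the first injection GFP+ Lin- c-Kit+ splenocytes of 3 mice per group were pooled. Each group is therefore 1 library, so no test between the groups was possible, deletion and tamoxifen cannot be told apart, and all intervals below are 95% intervals of counting error alone.

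The Usp18+/f-labelled library held 63690481 UMIs (unique molecular identifiers, each standing for 1 captured RNA molecule) and the Usp18+/Δ-labelled library held 65146263. After filtering, 6546 of 7281 and 7073 of 7833 barcodes were kept, with a median of 8576 and 8023 UMIs per cell, and 15 barcodes occurred in both libraries. Kit, the marker used for sorting, was detected in 52.0% and 51.7% of cells, and Runx1, whose product is the AML1 part of the fusion, in 93.8% and 94.1%. Markers of T cells, B cells and endothelium were close to 0, with Cd3d and Cdh5 at 0 UMIs in both libraries. Of the 4 plasmacytoid dendritic cell markers, Siglech was at 0 in both, Ccr9 had 151 and 137 UMIs, and the list summed to 158 and 150. Of the 4 natural killer cell markers, Ncr1 and Klra8 were at 0 in both. Nkg7, a cytotoxic granule gene on the natural killer cell list, was at 7.20 and 17.4 CPM, the progenitor marker Cd34 at 6.17 and 16.4 CPM, and Cpa3, a mast cell protease, at 101 and 190.2 CPM. The 5 erythroid markers summed to 4007 and 4175 CPM, with Hba-a1 in 84.8% and 78.0% of cells. The part of these genes' cells in the results was not tested. The 7 macrophage markers summed to 260 and 535 UMIs. The 6 neutrophil markers summed to 2 and 1343 UMIs, of which a single cell of the Usp18+/Δ-labelled library held 313 of the 317 S100a8 UMIs and 592 of the 604 S100a9 UMIs. When every cell with a UMI of these macrophage or neutrophil markers was left out, 130 and 284 cells, the difference of each of the 5 genes stayed within its interval.

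Isg15 and Usp18 were several times higher in the Usp18+/Δ-labelled library, Ube2l6 and Herc6 were about 1.5 times higher, and Uba7 was nearly level (see the plot of summed levels). Levels are given as CPM, the UMIs of a gene in 1000000 UMIs of its library.

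The targeted gene, Usp18 (ENSMUSG00000030107, mm10 chr6:121245906-121270917, plus strand), had 330 UMIs in the Usp18+/f-labelled library, 5.68 CPM (5.09 to 6.33). It had 1434 UMIs in the Usp18+/Δ-labelled library, 24.1 CPM (22.9 to 25.4). The log2 ratio was 2.08 (1.91 to 2.26), a 4.24-fold higher level in the library labelled for the loss of 1 allele. The summed transcript level was thus higher, not lower, in that library. Usp18 is itself an ISG, as said above, and the cause of its higher level was not tested. UMIs were read at the 3′ end of transcripts and the floxed exons are not given in the sources used here, so the counts do not tell a deleted from an intact allele. Every ratio and rank is given in the direction of the labels.

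Isg15 (ENSMUSG00000035692, chr4:156199424-156200818, minus strand), the modifier itself, had 1215 UMIs or 20.9 CPM (19.8 to 22.1) against 6878 UMIs or 116 CPM (113 to 118). Its log2 ratio of 2.47 (2.38 to 2.55) was the 7th highest of the 8879 genes that averaged 5 CPM or more, and Usp18 stood 12th. In this comparison 42 of the 8879 genes, 0.473%, were at least 2-fold higher in the Usp18+/Δ-labelled library, among them 2 of the 5 pathway genes, and 4 genes, 0.0451%, were at least 2-fold lower.

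The enzymes of the cascade differed less. Ube2l6 (ENSMUSG00000027078, chr2:84798828-84810335, plus strand), the E2, had 27.7 CPM (26.3 to 29.0) against 43.8 CPM (42.2 to 45.5), a log2 ratio of 0.66 (0.57 to 0.75). Herc6 (ENSMUSG00000029798, chr6:57581000-57664632, plus strand), the E3, had 26.0 CPM (24.7 to 27.3) against 39.4 CPM (37.8 to 41.1), a log2 ratio of 0.60 (0.51 to 0.70). Both stood among the 100 highest ratios, at ranks 81 and 95, without reaching 2-fold. Uba7 (ENSMUSG00000032596, chr9:107975505-107984060, plus strand), the E1, had 59.8 CPM (57.8 to 61.8) against 62.8 CPM (60.8 to 64.8). Its log2 ratio of 0.070 (0.0031 to 0.14) stood at rank 2560, and the median over all 8879 genes was 0.0074. For each Isg15 UMI there were 0.272 Usp18 UMIs in the Usp18+/f-labelled library and 0.208 in the Usp18+/Δ-labelled library, a log2 ratio of -0.38 (-0.58 to -0.18), and 2.86 and 0.543 Uba7 UMIs. Set against the summed UMIs of 39 other ISGs, Usp18 stood the other way, at 0.00678 and 0.0140 UMIs per other-ISG UMI, a log2 ratio of 1.04 (0.87 to 1.22).

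Among the members, 2 overlap annotated genes that were counted separately. Uba7 overlaps Gm20661 on the same strand, which held 31 and 27 UMIs, and Usp18 overlaps Gm44148 on the opposite strand, which held 21 and 16 UMIs. How many UMIs the members lost to the overlaps was not measured.

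**Figure D1:**
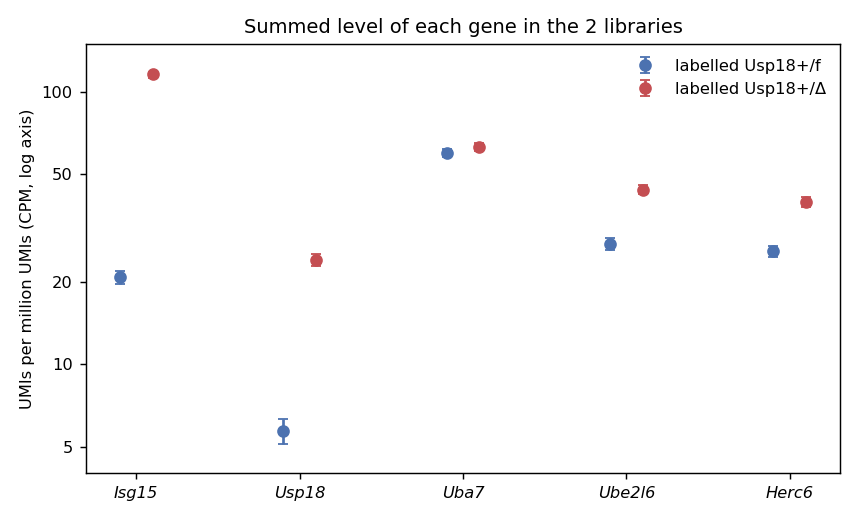
Summed level of each gene in CPM (UMIs of the gene in 1000000 UMIs of the library, log axis) in the Usp18+/f-labelled library (blue) and the Usp18+/Δ-labelled library (red); points are 1 library each and bars are exact Poisson 95% intervals of counting error. Isg15 stood at 20.9 and 116 CPM and Usp18 at 5.68 and 24.1 CPM, while Uba7 stood at 59.8 and 62.8 CPM.

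Other genes tied to ISG15 that reached 5 CPM differed less than Isg15, Usp18, Ube2l6 and Herc6, but some, such as Trim25, differed more than Uba7. Of 8 other genes tied to ISG15 (further enzymes of its attachment and removal, Skp2, which marks USP18 for degradation, and the receptor of secreted ISG15), 7 reached a mean of 5 CPM and none was 2-fold higher or lower, with a median log2 ratio of -0.0067. Trim25, a ligase that is itself interferon-inducible, had the highest ratio at 0.46 (0.38 to 0.54), and Ube2e1 the lowest at -0.066 (-0.13 to -0.0015). Usp16, a further protease that can remove ISG15, was at 68.0 and 67.6 CPM. Itgal and Itgb2, the chains of the integrin LFA-1 that binds free ISG15, had log2 ratios of 0.25 (0.11 to 0.38) and 0.12 (-0.045 to 0.29).

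The ubiquitin counterparts of the pathway were close to level. Of 15 such genes, 14 reached 5 CPM, 7 of them had a ratio above 0, none differed 2-fold, and the median log2 ratio was 0.031. Uba1, the ubiquitin E1, had a log2 ratio of 0.087 (0.031 to 0.14), and Ube2l3, the closest relative of Ube2l6, one of -0.045 (-0.074 to -0.015). The ligases Herc1, Herc2 and Herc4 had log2 ratios of 0.063, 0.084 and 0.12.

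Upstream of the pathway, 8 of 9 receptor and signaling genes reached 5 CPM, all 8 had a ratio above 0, as had 52.8% of the 8879 genes, and none was 2-fold higher. The receptor chains and kinases were near level, with log2 ratios of 0.11 for Ifnar1, 0.023 for Ifnar2, 0.0032 for Jak1 and 0.015 for Tyk2. Stat2 and Irf9, which code for subunits of ISGF3, were higher by 0.72 (0.58 to 0.87) and 0.59 (0.51 to 0.67) on the log2 scale. Among 40 other ISGs, a list that also holds Stat2 and Irf9, 39 were found and 28 reached 5 CPM. All 28 had a ratio above 0 and 16 were at least 2-fold higher, against 52.8% and 0.473% of all genes, and the median was 1.13, from 0.21 for Ifit2 to 3.55 for Ifit1. The 5 CPM is a mean over both libraries. Ifit1, Oasl2, Rtp4, Dhx58, Oas2 and Irf7 were below it in the Usp18+/f-labelled library. They entered only through their level in the other library, Ifit1 with 1.26 against 14.8 CPM, so these counts are descriptions. The log2 ratio of Isg15 thus lay between those of Oas2, 2.19, and Irf7, 2.65, while that of Ube2l6 lay beside Eif2ak2, 0.65, and Dtx3l, 0.67.

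The number of cells with a UMI was compared after each cell had been thinned at random to 3000 UMIs, which left 6090 and 6723 cells and left out 456 and 350 shallower ones. Isg15 was detected in 5.34% (4.79 to 5.93) of cells of the Usp18+/f-labelled library and 17.9% (17.0 to 18.9) of cells of the Usp18+/Δ-labelled library. Without thinning these shares were 13.5% and 33.2%. Usp18 was detected in 99 thinned cells, 1.63% (1.32 to 1.98), and in 472, 7.02% (6.42 to 7.66). Unthinned, the Usp18 shares were 4.54% and 15.4%.

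Ube2l6 was detected in 8.28% (7.60 to 9.00) and 12.7% (11.9 to 13.5) of thinned cells. Herc6 was detected in 7.57% (6.92 to 8.26) and 11.6% (10.9 to 12.4). Uba7, at 16.1% (15.2 to 17.1) and 16.9% (16.0 to 17.8), had overlapping intervals, and its unthinned shares were 38.9% and 38.5%. No cell type that should lack these genes was present in number, so the part of free RNA in these shares was not tested.

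For Isg15 the difference lay both in how many cells had a UMI and in how many UMIs those cells had. Without thinning, the cells with Isg15 held a mean of 1.38 and 2.93 UMIs, and 83.6% and 56.5% of them held a single UMI. Cells with more than 5 Isg15 UMIs numbered 16 of 6546 in the Usp18+/f-labelled library and 236 of 7073 in the Usp18+/Δ-labelled library, and the highest cell held 28 and 107 UMIs. At 3000 UMIs per cell the variance of Isg15 was 1.84 and 6.93 times its mean, where independent draws at 1 common level would give about 1. At an equal relative spread this value rises with the level of the gene, and the Isg15 level differed between the libraries.

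The other genes had a variance closer to the mean. The variance over mean was 1.02 and 1.24 for Usp18, 1.03 and 1.04 for Uba7, 1.06 and 1.09 for Ube2l6, and 1.07 and 1.20 for Herc6. The 1% of cells with the most UMIs of a gene held 26.3% and 29.4% of all Isg15 UMIs, 30% and 19.5% of all Usp18 UMIs, and 6.91% and 7.28% of all Uba7 UMIs. These concentrations and the variance over mean depend on the level of the gene as well as on its spread, and are given per gene for that reason.

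**Figure D2:**
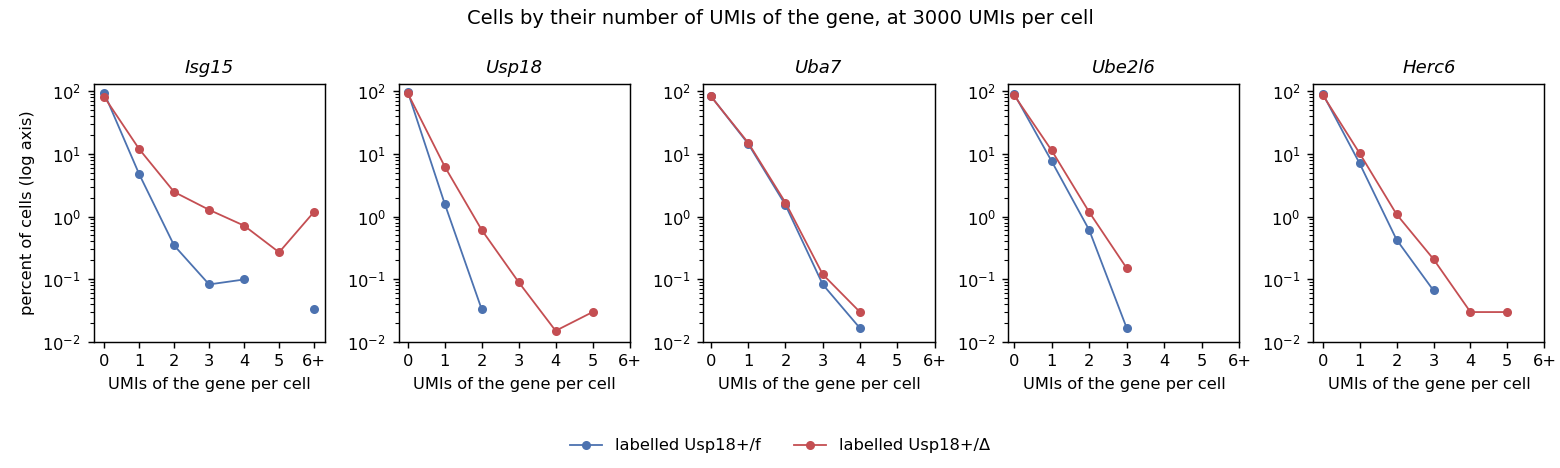
Percent of cells (log axis) by the number of UMIs of each gene after every cell was thinned to 3000 UMIs, with 6 or more in the last class, in the Usp18+/f-labelled library (blue, 6090 cells) and the Usp18+/Δ-labelled library (red, 6723 cells); classes without a cell have no point. The Isg15 curve of the Usp18+/Δ-labelled library has a long tail, whose highest cell held 60 UMIs against 14 in the other library, and the 2 Uba7 curves nearly coincide.

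Usp18, the deconjugase, was found more often in cells that also had Isg15 RNA. In the Usp18+/Δ-labelled library, 156 of 1205 thinned cells with Isg15 held Usp18, 12.9% (11.1 to 15), against 316 of 5518 cells without Isg15, 5.73% (5.13 to 6.37). The log2 ratio of these shares was 1.18 (0.91 to 1.44). In the Usp18+/f-labelled library the shares were 13 of 325, 4.0% (2.15 to 6.74), and 86 of 5765, 1.49% (1.19 to 1.84), a log2 ratio of 1.42 (0.60 to 2.23). Both ratios lay above 0, and their intervals overlapped. The ratio in the Usp18+/f-labelled library moved with depth, from 2.31 at 1500 UMIs per cell to 0.62 at 5000. Within called cell cycle phases of the Usp18+/Δ-labelled library the ratio was 0.97 in G1, 1.49 in S and 1.0 in G2M, with each interval above 0. For the Usp18+/f-labelled library it was 1.32, 0.62 and 1.81, on 6, 2 and 5 cells with both genes.

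The E2 and E3 were also found more often beside Isg15 in the Usp18+/Δ-labelled library. There, Ube2l6 was held by 20.2% (17.9 to 22.5) of cells with Isg15 and 11.1% (10.3 to 11.9) of cells without, and Herc6 by 19.1% (16.9 to 21.4) and 9.99% (9.21 to 10.8). In the Usp18+/f-labelled library, the Ube2l6 shares were 12.3% and 8.05%, a log2 ratio of 0.61 (0.17 to 1.04), and the Herc6 shares were 8.31% and 7.53%, a log2 ratio of 0.14 (-0.40 to 0.67). Whether these ratios differ between the libraries was not tested.

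Uba7 showed no link to Isg15 beyond counting error in either library: the log2 ratio was 0.072 (-0.29 to 0.42) in the Usp18+/f-labelled library and -0.023 (-0.22 to 0.18) in the Usp18+/Δ-labelled library. Uba7 was also detected at like shares in cells with and without Herc6, 15.2% and 17.1% in the Usp18+/Δ-labelled library. In that library it was somewhat more frequent in cells with Ube2l6, 20.1% against 16.4%.

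Cells with several pathway genes were uncommon at this depth. At least 2 of the 5 genes were detected in 4.89% (4.36 to 5.47) and 13.7% (12.9 to 14.5) of thinned cells, and at least 3 in 0.493% (0.333 to 0.702) and 3.27% (2.86 to 3.73). All 5 were detected in 1 and 7 cells. No gene of the pathway was detected in 66.6% and 51.6% of cells.

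The difference in Usp18 was also present where Isg15 was not detected. In the cells without an Isg15 UMI, 5663 and 4727 unthinned cells, Usp18 stood at 4.81 CPM (4.21 to 5.46) and 16.1 CPM (14.9 to 17.4), a log2 ratio of 1.75 (1.53 to 1.97). The same cells had log2 ratios of 0.50 (0.39 to 0.61) for Ube2l6, 0.27 (0.15 to 0.38) for Herc6 and 0.059 (-0.020 to 0.14) for Uba7. Cells without an Isg15 UMI are not cells without Isg15 RNA, since most cells at this depth hold none or few.

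Each gene was then set against the interferon state of the cell, read as the summed UMIs of the 39 other ISGs in 3000 UMIs. The median cell held 2 and 4 of them. Cells with more than 10 such UMIs numbered 46, or 0.755%, in the Usp18+/f-labelled library and 687, or 10.2%, in the Usp18+/Δ-labelled library. Of the UMIs in the cells deep enough for thinning, these cells held 13.3% and 50.1% for Isg15, 9.85% and 30.8% for Usp18, and 0.787% and 11.1% for Uba7.

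Isg15 had a steep relation to the other ISGs in both libraries. In the Usp18+/f-labelled library it stood at 13.2 CPM in cells with none of them, 14.1 CPM with 1 to 2, 20.8 CPM with 3 to 5, 43.3 CPM with 6 to 10 and 508 CPM with more than 10. In the Usp18+/Δ-labelled library the values over the same classes were 24.2, 31.2, 51.6, 113 and 708 CPM. Isg15 was higher in the Usp18+/Δ-labelled library within every class, with log2 ratios from 0.48 (0.25 to 0.72) above 10 to 1.39 (1.15 to 1.64) at 6 to 10.

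Usp18 followed another course. In the Usp18+/f-labelled library it stayed near 5 CPM up to 5 other-ISG UMIs, with 5.07, 4.82 and 4.75 CPM, and stood at 10.0 CPM and 102 CPM in the classes above. In the Usp18+/Δ-labelled library it stood at 7.49, 10.9, 17.2, 27.4 and 90.7 CPM. The log2 ratio between the libraries was highest at 3 to 5 other-ISG UMIs, 1.86 (1.54 to 2.19), and above 10 it was -0.16 (-0.68 to 0.40).

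Ube2l6 and Herc6 reached similar levels in both libraries in the highest class, at 95.3 and 108 CPM for Ube2l6 and 127 and 114 CPM for Herc6. In the class without other-ISG UMIs they stood at 23.9 and 24.2 CPM and at 21.6 and 23.0 CPM, with log2 ratios of 0.015 (-0.51 to 0.52) and 0.096 (-0.45 to 0.61). Uba7 had the flattest course. From the class without other-ISG UMIs to the highest class it went from 54.7 to 85.7 CPM in the Usp18+/f-labelled library. In the Usp18+/Δ-labelled library it went from 65.1 to 84.1 CPM, with its lowest level, 56.1 CPM, at 1 to 2. Its log2 ratio between libraries had an interval that held 0 in all 5 classes. The highest class of the Usp18+/f-labelled library rests on 46 cells, and its intervals are wide. This class has no upper limit, and its highest cell held 31 other-ISG UMIs in that library and 80 in the other. For all 5 genes it is therefore not a comparison at equal other-ISG level.

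**Figure D3:**
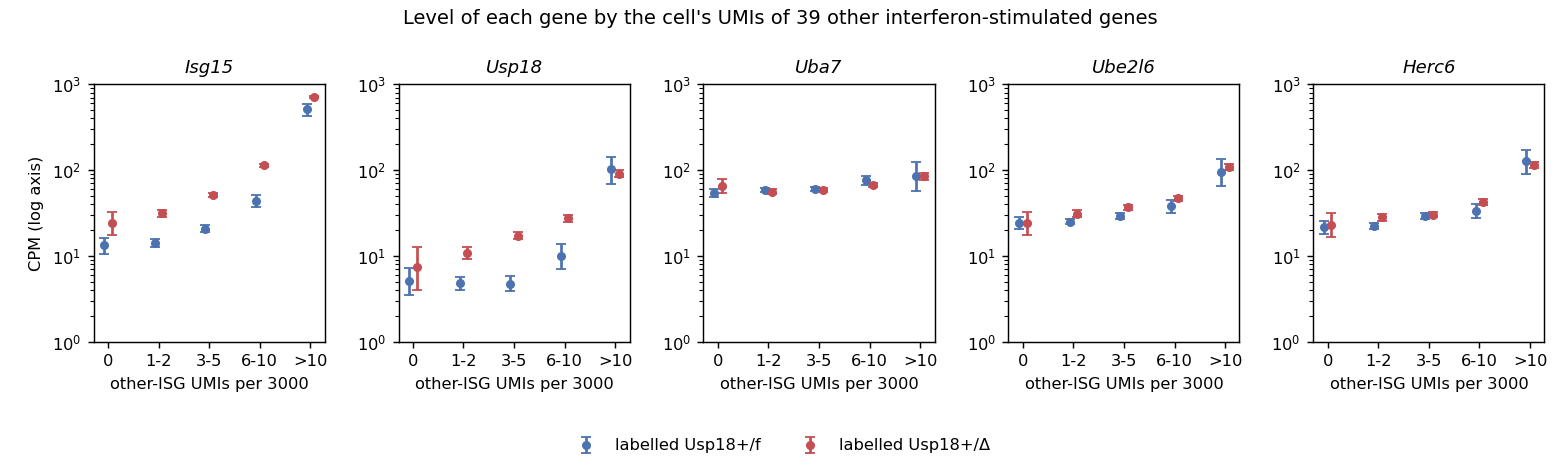
Level of each gene (CPM, log axis) in cells grouped by their UMIs of 39 other ISGs after thinning to 3000 UMIs, in the Usp18+/f-labelled library (blue) and the Usp18+/Δ-labelled library (red); bars are exact Poisson 95% intervals. Usp18 separates the libraries between 1 and 10 other-ISG UMIs and stands at 102 and 90.7 CPM above 10, while Isg15 is higher in the Usp18+/Δ-labelled library in all 5 classes.

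The genes most like Isg15 across cells were ranked by the mean over the 2 libraries of Pearson's r of log1p counts at 3000 UMIs, over 6090 and 6723 cells and 8878 genes. The cells of a library share its depth, cycle and free RNA, so the values are descriptions. The closest was Ifit1, with r of 0.18 in the Usp18+/f-labelled library and 0.46 in the Usp18+/Δ-labelled library, followed by Isg20, Rnf213 and Oas3. Ifih1, Ddx58 and Irf7 were also among the 10 closest genes outside the pathway, and all 7 were on the list of other ISGs. The remaining 3 were the haemoglobin genes Hba-a2, Hbb-bt and Hba-a1, with r of 0.094 to 0.10 and 0.22 to 0.23, whose log2 ratios between the libraries were 0.061, 0.39 and -0.20. Of the pathway genes, Usp18 came at rank 11, Herc6 at rank 25, Ube2l6 at rank 36 and Uba7 at rank 1510. All of these r values are weak to moderate, and the part of sparse counts in this was not tested.

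Isg15 and Ube2l6 were highest in cells called G1 in both libraries (see the plot of levels by phase). Usp18 and Uba7 also had their highest values there. In the Usp18+/f-labelled library the G1 interval of Usp18 overlapped those of S and G2M. For Uba7 the G1 and G2M intervals overlapped in both libraries. Its G2M over G1 ratio changed sign in both when cells were halved at the median share of cell cycle UMIs. Phases were called per library on thinned cells from 42 S phase and 52 G2M genes. G1 held 23.4% and 29.0% of cells, S 27.3% and 24.7%, and G2M 49.3% and 46.4%. In 274 and 319 cells the higher of both scores lay within 0.02 of the threshold between G1 and the cycling phases.

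Among cells of the Usp18+/f-labelled library, Isg15 stood at 36.4 CPM (32.6 to 40.4) in G1, 19.4 CPM (17.2 to 21.7) in S and 17.2 CPM (15.8 to 18.7) in G2M. In the Usp18+/Δ-labelled library it stood at 225 CPM (217 to 234), 93.3 CPM (88.4 to 98.4) and 85.0 CPM (81.8 to 88.3). The log2 ratio of G2M over G1 was -1.08 (-1.28 to -0.88) and -1.40 (-1.48 to -1.33).

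Usp18 stood at 7.32, 5.14 and 5.44 CPM in G1, S and G2M of the Usp18+/f-labelled library and at 37.6, 21.6 and 20.2 CPM in the Usp18+/Δ-labelled library. Its G2M over G1 log2 ratio was -0.43 (-0.84 to -0.0051) and -0.89 (-1.07 to -0.72). Ube2l6 had G2M over G1 log2 ratios of -0.58 (-0.76 to -0.40) and -1.03 (-1.16 to -0.90).

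Herc6, the ligase, had a different order of phases in the 2 libraries. In the Usp18+/f-labelled library it was highest in S, at 38.3 CPM (35.2 to 41.5), against 26.9 CPM (23.7 to 30.5) in G1 and 19.9 CPM (18.4 to 21.5) in G2M. In the Usp18+/Δ-labelled library it was highest in G1, at 56.4 CPM (52.2 to 60.8), against 46.1 CPM (42.7 to 49.7) in S and an interval of 28.1 to 32.0 CPM in G2M. Uba7 was lowest in S in both, at 50.5 and 51.9 CPM, and stood at 69.0 and 68.2 CPM in G1 and 61.5 and 64.6 CPM in G2M, where the G1 and G2M intervals overlapped in each library.

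The difference between the libraries was present within each phase. For Isg15 its log2 ratio was 2.63 in G1, 2.27 in S and 2.31 in G2M, and for Usp18 it was 2.36, 2.07 and 1.89. For Ube2l6 it was 0.89, 0.63 and 0.44, and for Herc6 1.07, 0.27 and 0.59, both largest in G1. When the phase levels of the Usp18+/f-labelled library were weighted by the phase mix of the other library, the log2 ratio of Isg15 was 2.42 and that of Usp18 2.07, against 2.47 and 2.09 in the same cells without that weighting. Cells called G1 held fewer UMIs, with medians of 6386 and 5881 against 10613 and 9964 in G2M, so phase and depth move together.

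**Figure D4:**
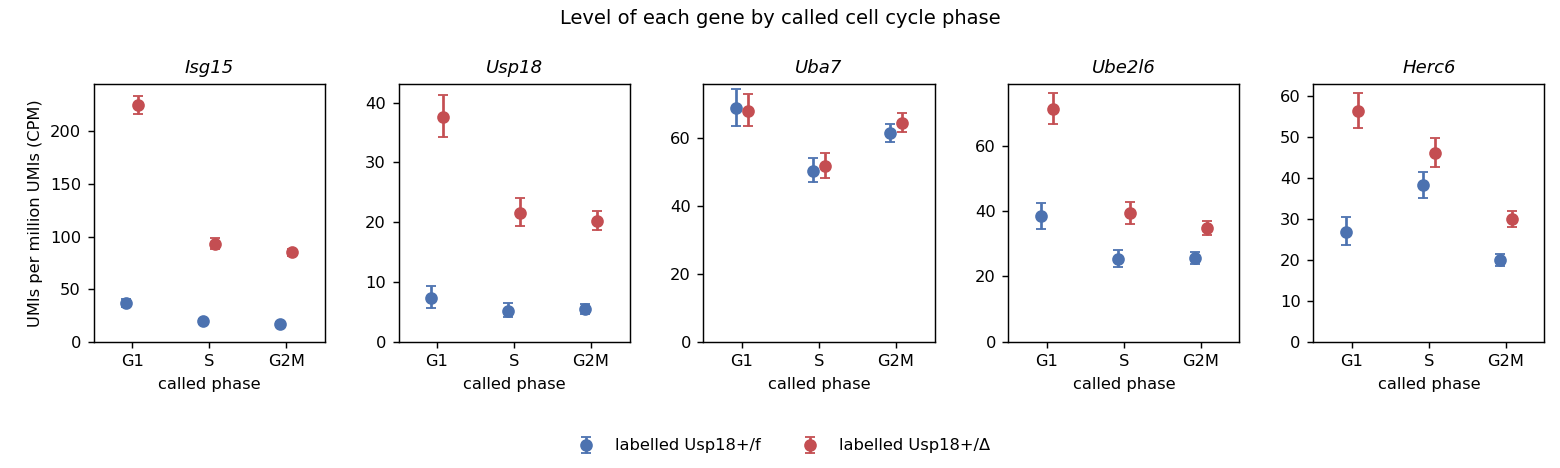
Level of each gene in CPM by called cell cycle phase in the Usp18+/f-labelled library (blue) and the Usp18+/Δ-labelled library (red), with exact Poisson 95% intervals; each panel has its own axis, which starts at 0. Isg15 and Ube2l6 are highest in G1 in both libraries, and Herc6 is highest in S in one (38.3 CPM) and in G1 in the other (56.4 CPM). Usp18 and Uba7 have their highest points in G1, with overlapping intervals for Usp18 in the Usp18+/f-labelled library and for Uba7 in both.

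The levels were also split by the depth of the cell. From cells with 3000 to 6000 UMIs to cells with 12000 or more, Isg15 went from 29.7 to 17.0 CPM in the Usp18+/f-labelled library and from 192 to 84.4 CPM in the Usp18+/Δ-labelled library. Ube2l6 went from 38.0 to 24.6 CPM and from 74.5 to 34.5 CPM. Over the 5 depth classes the log2 ratio ran from 2.26 to 2.69 for Isg15, from 1.71 to 2.46 for Usp18, from 0.46 to 1.43 for Ube2l6 and from 0.46 to 0.95 for Herc6. Their intervals lay above 0 at every depth, except for Herc6 under 3000 UMIs (-0.34 to 1.38). Uba7 had a log2 ratio of 0.90 (0.36 to 1.46) in the cells under 3000 UMIs and between -0.018 and 0.11 in the deeper classes. The class under 3000 UMIs held different cells in the 2 libraries: 308 of its 456 cells of the Usp18+/f-labelled library and 44 of 350 of the other were of cluster 7, described below, and its median was 1308 and 2330 UMIs. Without that cluster, an alternative chosen after seeing the data, the class gave 1.89 (0.97 to 2.95) for Isg15, 1.07 (-0.57 to 3.10) for Usp18 and 0.52 (-0.10 to 1.17) for Uba7. Ube2l6 then had 0.97 (0.12 to 1.89), against 1.43 with the cluster, and Herc6 0.87 (-0.30 to 2.22), against 0.51.

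For all 5 genes the log2 ratio was highest in the cells with the lowest mitochondrial share. Among cells with under 5% mitochondrial UMIs, 1012 and 732 in number, the log2 ratio was 3.00 (2.75 to 3.25) for Isg15, 2.46 (1.94 to 3.02) for Usp18 and 1.24 (0.98 to 1.51) for Ube2l6. From 5% to 10% it ran from 2.27 to 2.53 for Isg15, from 1.82 to 2.20 for Usp18 and from 0.27 to 0.74 for Ube2l6. Herc6 had 0.81 (0.52 to 1.10) in the lowest class and 0.44 to 0.75 above it. Uba7 ran from 0.31 (0.096 to 0.52) in the lowest class to -0.20 (-0.42 to 0.021) in the highest. Of the lowest class, 309 and 44 cells were of cluster 7, and without them the log2 ratios were 2.97 for Isg15, 2.42 for Usp18, 0.28 for Uba7, 1.21 for Ube2l6 and 0.83 for Herc6.

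The cells of both libraries were clustered together without the 5 genes, the other ISGs and sex-linked genes among the variable genes, which gave 10 clusters numbered from 0. Most were led by cell cycle genes, such as Cenpf and Ube2c in cluster 1, Cdc6 and Ccne1 in cluster 3 and histone genes in cluster 4, and none was named as a cell type. The difference in Isg15 and Usp18 was present in each of the 8 clusters with at least 79 cells per library. There the log2 ratio ran from 1.82 to 2.77 for Isg15 and from 1.55 to 3.39 for Usp18.

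Cluster 0, led by Trp53inp1, Cpa3 and Csf2rb2 with 922 and 1816 cells, had the highest Isg15 level among the 7 clusters with at least 540 cells per library, at 41.1 and 281 CPM. In it Herc6 stood at 28.0 and 59.3 CPM and Ube2l6 at 42.5 and 79.7 CPM, the only cluster of these 7 where Herc6 was at least 2-fold higher. Usp18 stood at 8.33 and 39.7 CPM, and Uba7 at 81.9 and 78.9 CPM. Across the same 7 clusters the log2 ratio ran from 0.11 to 0.91 for Ube2l6, from 0.20 to 1.08 for Herc6 and from -0.23 to 0.22 for Uba7.

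Clusters 7 and 9 stood apart. Cluster 7 held 309 and 44 cells, whose medians were 1053 UMIs and a mitochondrial share of 0.894%, and 5 and 3 Isg15 UMIs in all. Cluster 9 held 9 and 43 cells and was led by neutrophil and macrophage genes such as S100a9 and C1qb, with 0 and 61 Isg15 UMIs. Without both clusters the log2 ratio of each of the 5 genes stayed within its interval.

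**Figure D5:**
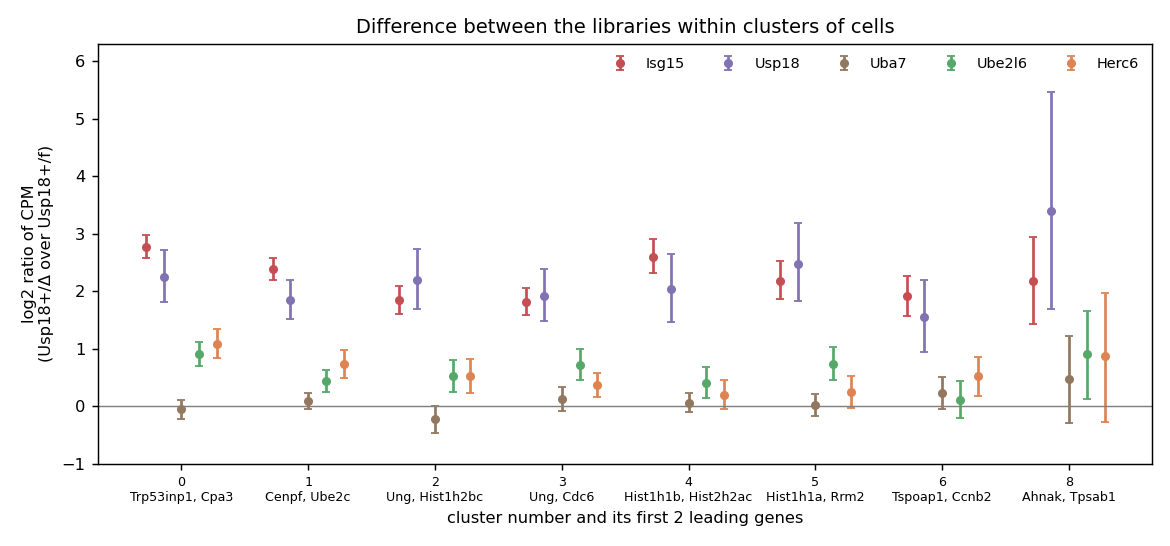
Log2 ratio of CPM between the libraries (labelled Usp18+/Δ over labelled Usp18+/f) of each gene within the 8 clusters that held at least 79 cells in both libraries, with exact conditional 95% intervals; the line marks equal levels. Isg15 and Usp18 lie above 1.5 in all 8, and Uba7 lies between -0.23 and 0.48.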

How the data were processed

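Libraries had been made with the 10x Genomics 3′ kit, version 3, for 8000 targeted cells per group, and the authors mapped them with Cell Ranger to mm10. The deposited values are raw UMI counts per gene and barcode, 1 matrix per group, with at least 500 UMIs in every barcode. A Seurat step is named in the submitters' processing notes, and its output was not used here.

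Barcodes were dropped if they had fewer than 500 genes or more than 10% mitochondrial UMIs. Scrublet in scanpy 1.11.5 marked 0.0436% and 0.0270% of cells automatically, under the 0.5% taken as a working call, so the cells with a score above the 95th percentile of their library were removed, 340 and 333 cells. UMIs were summed per library and scaled to CPM with no pseudocount. Shares, co-detection and phases used cells thinned to 3000 UMIs.

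Intervals are exact Poisson for levels, exact Clopper-Pearson for shares, exact conditional for ratios of levels and score intervals for ratios of shares (scipy 1.17.1, statsmodels 0.14.6), and the functions were tested on simulated data. They cover counting error only. A count of 0 allows up to 3 UMIs as a one-sided 95% limit, 0.0517 and 0.0504 CPM. There was no test between groups, since each is 1 library.

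Clusters used 10000 UMIs per cell, log1p, 2000 variable genes, 30 principal components, 20 neighbours and Leiden resolution 0.8, and leading genes had at least 20 CPM in the cluster and the highest fold over the other cells. The named genes were the 5 members, the highest and lowest of each list, and the 10 genes outside the pathway most like Isg15; some of these are not reported here. Other genes in the text were chosen after their values were seen. The members and lists were chosen with earlier results of these data known. Gene coordinates are from GENCODE vM21, which matched 31011 of 31053 genes by identifier.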

Additional observations from a re-analysis of the deposited data

Results flagged for a closer look

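The barcodes that the filters on genes and mitochondrial share left out, 395 and 427 in number, had a signal of their own. In them Isg15 had 18 and 128 UMIs, a log2 ratio of 2.51 (1.79 to 3.31), and Usp18 had 8 and 31 UMIs, a log2 ratio of 1.64 (0.48 to 2.97). Ube2l6, Herc6 and Uba7 had log2 ratios of 0.0038, 0.13 and -0.21 there, with intervals that held 0.

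Herc6 had opposite signs in the 2 libraries for S over G1 cells, a log2 ratio of 0.51 (0.29 to 0.72) in the Usp18+/f-labelled library and -0.29 (-0.45 to -0.13) in the Usp18+/Δ-labelled library. The difference between the libraries was not tested, since each group is 1 library. With another random seed the values were 0.36 and -0.33, with phases called on unthinned cells 0.49 and -0.28, and with doublets kept 0.38 and -0.28. With at most 5% mitochondrial UMIs they were 0.55 (-0.24 to 1.41) and -0.19 (-0.74 to 0.34), and both intervals held 0.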

How the results depend on the processing

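No paired analysis was possible because there is a single library in each group, which also leaves no replicate to leave out. Alternatives were called close where they stayed within the 95% interval of the reported value. For levels, 40 of 45 alternatives stayed close and none changed sign. These alternatives include 2 settings chosen after seeing the data, without cells with macrophage or neutrophil marker UMIs, and without clusters 7 and 9. Each was applied to all 5 genes, and both stayed close for every gene. At most 5% mitochondrial UMIs, which kept 1013 and 732 cells, gave log2 ratios of 3.00 for Isg15, 2.47 for Usp18, 0.31 for Uba7, 1.25 for Ube2l6 and 0.81 for Herc6, and 1.35 for the share of cells with Ube2l6. The cause was not tested. Scaling by median-of-ratios size factors shifted every log2 ratio by -0.0074. Shares of cells moved without thinning, to 1.30 for Isg15, 1.77 for Usp18, 0.44 for Ube2l6 and 0.39 for Herc6, and thinning to 1500 UMIs gave 2.0 for Isg15. At that depth the log2 ratio of Usp18 shares in cells with over cells without Isg15 was 2.31 in the Usp18+/f-labelled library and 1.90 in the Usp18+/Δ-labelled library, against 0.62 and 1.12 at 5000 UMIs and 0.93 and 1.01 without thinning. Within S cells of the latter, an alternative chosen after seeing the data, it was 1.49.

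For G2M over G1, 2 of 50 alternatives changed sign, both for Uba7 when cells were halved at the median share of cell cycle UMIs, from -0.17 to 0.11 in the Usp18+/f-labelled library and from -0.079 to 0.034, within the interval, in the Usp18+/Δ-labelled library. This halving gave -0.70 for Isg15 and -0.30 for Ube2l6 in the Usp18+/f-labelled library, and -1.07 for Isg15, -0.71 for Usp18, -0.72 for Ube2l6 and -0.69 for Herc6 in the Usp18+/Δ-labelled library. At most 5% mitochondrial UMIs gave -1.84 for Isg15 and -0.91 for Ube2l6 in the first, and -1.52 for Isg15, -1.34 for Usp18 and -0.51 for Uba7 in the second. There Isg15 was also -1.49 with phases on unthinned cells, -1.52 with doublets kept and -1.56 with another seed. The count of genes at least 2-fold higher, 42, was 115 with a mean of at least 1 CPM and 13 with 20 CPM, since the filter sets how many genes enter. Usp18 had the fewest positive thinned cells of the 5 genes, with 99 in the Usp18+/f-labelled library.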
